A study of Mus musculus with 3 samples.

Results

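The matrix metalloproteinases (MMPs), the ADAMTS metalloproteinases and the tissue inhibitors of metalloproteinases (TIMPs) were described in cardiac fibroblasts of infarcted mouse hearts and in cardiomyocyte-like cells made from them. The members were all protein-coding genes whose symbol was Mmp, Adamts or Timp followed by a number and at most the letter a or b. This gave 45 of the 54532 genes in the deposited tables, namely 22 Mmp, 19 Adamts and 4 Timp genes. RNA sequencing covered 3 libraries, 1 for each group, so no value had a replicate and no p-value was computed. All cells came from adult Myh6-mCherry mice, in which the mouse Myh6 promoter drives the red reporter. The fibroblasts (MICFs) were cultured from infarct tissue taken 5 days after ligation of the coronary artery and received no virus. The GMTMS-iCMs were MICFs given doxycycline-inducible lentiviruses for Gata4, Mef2c, Tbx5, Myocd and Sall4 for 4 weeks and then sorted for mCherry. The GMTMM cocktail is named for the same factors with Mesp1 in place of Sall4, and its cells were handled in the same way. Each iCM library mixed 5 sorted samples, mCherry reports activity of the Myh6 promoter only, and the MICFs were a mixed population that was cultured for the same time. Whether the MICFs received doxycycline is not given in the sources used here.

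MMPs are zinc-dependent proteases that cut collagens, proteoglycans and other matrix proteins outside the cell. Most are secreted as inactive precursors, and the membrane-type MMPs stay anchored at the cell surface. The ADAMTS enzymes are secreted relatives that trim procollagens or cut large proteoglycans. TIMPs bind the active site of MMPs and block it, and Timp3 also blocks ADAMTS enzymes. In the infarcted heart these genes are known for the removal of damaged matrix and for scar remodelling, with fibroblasts and macrophages among the cells that express them.

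Of the 22 Mmp members, 9 lie next to each other on chromosome 9, from base 7272514 to base 7699585 of GRCm38, in the order Mmp13, Mmp12, Mmp1b, Mmp3, Mmp10, Mmp8, Mmp27, Mmp20 and Mmp7. Promoters from RefSeq (build GRCm38.p6), 250 bases before to 50 bases after each annotated start, were matched by symbol for 31 of the 45 members and gave 34 sequences. They were searched on both strands for the AP-1 site TGAGTCA, the PEA3 site AGGAAG, the TATA box TATAAA and the NF-kB consensus site. The AP-1 letters were found in 6 of the 34 promoters (17.65%) and in 5.20% of all 32851 promoters of that length. The 6 belonged to Mmp10, Mmp12, Mmp13, Mmp1b, Mmp3 and Mmp7, which all lie in the chromosome 9 cluster. PEA3 letters were in 15 of the 34 (44.1%) against 35.4% of all promoters, and the TATA box in 10 (29.4%) against 13.6%. None of the 34 promoters held the NF-kB site, which 0.411% of all promoters held. No promoter was matched for Mmp2, Mmp9, Mmp16, Mmp17, Mmp19, Adamts4, Adamts5, Adamts6, Adamts7, Adamts8, Adamts10, Adamts15, Adamts16 and Adamts19, so these were not searched. The 250 bases before the start are printed for the cluster genes that had AP-1 letters and at least 20 counts in a library, because Mmp13 and Mmp12 were higher and Mmp3 was lower in GMTMS-iCMs. All are on the plus strand, written 5′ to 3′, and capitals mark AP-1, PEA3 and TATA letters on either strand.
Mmp13, chr9:7272264-7272513: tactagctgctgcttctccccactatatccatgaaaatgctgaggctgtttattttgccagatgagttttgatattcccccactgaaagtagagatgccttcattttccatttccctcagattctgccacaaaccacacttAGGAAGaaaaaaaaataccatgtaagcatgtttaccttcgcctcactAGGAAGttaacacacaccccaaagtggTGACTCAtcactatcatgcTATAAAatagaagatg
Mmp12, second RefSeq start, chr9:7347124-7347373: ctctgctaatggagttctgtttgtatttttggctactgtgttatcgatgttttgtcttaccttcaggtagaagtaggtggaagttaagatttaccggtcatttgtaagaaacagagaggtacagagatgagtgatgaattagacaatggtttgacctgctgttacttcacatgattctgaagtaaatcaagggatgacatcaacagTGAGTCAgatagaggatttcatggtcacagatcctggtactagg
Mmp12, first RefSeq start, chr9:7344147-7344396: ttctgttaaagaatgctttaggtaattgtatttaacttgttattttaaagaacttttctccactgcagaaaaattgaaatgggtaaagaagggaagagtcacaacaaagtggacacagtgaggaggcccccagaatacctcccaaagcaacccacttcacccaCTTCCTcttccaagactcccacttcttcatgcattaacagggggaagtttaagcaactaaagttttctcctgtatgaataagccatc
Mmp3, chr9:7445572-7445821: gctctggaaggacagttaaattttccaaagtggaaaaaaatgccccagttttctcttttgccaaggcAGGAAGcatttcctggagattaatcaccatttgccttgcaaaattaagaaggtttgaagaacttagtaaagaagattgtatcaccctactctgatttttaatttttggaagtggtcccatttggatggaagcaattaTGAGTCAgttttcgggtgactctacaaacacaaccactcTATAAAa
The first AP-1 base was at -35 in Mmp13, at -44 before the second start of Mmp12 and at -46 in Mmp3, counted from the annotated start as 0. Each of these genes had the AP-1 letters close to a start, and in Mmp12 only before the second of its annotated starts. A match is a description of the letters and does not show that a factor was bound.

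The libraries held 10624118 to 11904484 counts, and the 45 members together held 0.576% of all MICF counts, 0.403% of GMTMS-iCM counts and 0.818% of those of the GMTMM-labelled library. In that library Sall4 had 1060 counts and Mesp1 had 0, while GMTMS-iCMs had 1190 counts of Sall4, so the name is used below only as a label. The 8 cardiomyocyte markers summed to 1.61 FPKM (fragments per kilobase of gene, scaled to library size) in MICFs, 684 FPKM in GMTMS-iCMs and 244 FPKM in the GMTMM-labelled library. The 9 fibroblast markers summed to 1360, 202 and 2524 FPKM in the same library order, and all 9 were over 2-fold lower in GMTMS-iCMs than in MICFs. The 11 macrophage markers, none of them at 0 in any library, summed to 9852, 20411 and 9580 FPKM, and 9 of them were over 2-fold higher in GMTMS-iCMs than in MICFs. Several were close to the threshold, with ratios of 2.02 for C1qb, 2.03 for C1qa, 2.07 for Fcgr1 and 2.16 for Cd68. Scaling by library totals moves log2 ratios in this comparison by -0.47. That would leave only Cd14 (14.2-fold) and Ptprc (2.97-fold) past 2-fold. The 8 endothelial markers summed to 453, 13.1 and 350 FPKM, and all 8 were over 2-fold lower in GMTMS-iCMs. Neutrophil markers summed to 1.33, 1.01 and 6.94 FPKM, with S100a9 and Ly6g at 0 in every library. Y-linked genes summed to 0, 1630 and 1926 counts, and Xist, the RNA of X inactivation, had 11855, 5279 and 1618. The sex of the animals is not given in the sources used here. Y-linked RNA was found in both iCM libraries and not in the MICF library, so their makeup by sex differed. Xist counts also differed between the iCM libraries, whose makeup by sex may differ too. Sex therefore cannot be told apart from the group in any of the comparisons. The part of these marker differences in the results below was not tested, and in bulk RNA fewer cells of a type and less RNA per cell cannot be told apart.

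Against MICFs, GMTMS-iCMs had more transcript of 5 MMPs, led by the collagenase Mmp13, and less of most ADAMTS enzymes, of the gelatinase Mmp2 and the stromelysin Mmp3, and of Timp1 and Timp3. Folds are ratios of deposited FPKM and were taken for the 32 members (16 Mmp, 13 Adamts and 3 Timp) with at least 20 counts in 1 of the 3 libraries. Of these, 7 were over 2-fold higher and 20 were over 2-fold lower in GMTMS-iCMs, and 5 were under 2-fold. Values listed below without a library name follow the order MICFs, GMTMS-iCMs, GMTMM-labelled library. Among the 12835 protein-coding genes that met the same minimum, 14.1% were over 2-fold higher and 19.2% were over 2-fold lower. The median log2 ratio was -1.73 over the members and -0.05 over the 12810 genes with a ratio. Intervals given with a ratio are exact 95% Clopper-Pearson intervals, which cover counting error only, because each group has 1 library. Reads without molecular identifiers are not independent molecules, so the intervals may be too narrow even for counting error. Scaling by library totals in place of the deposited FPKM moved the median of all genes by -0.47 on the log2 scale in this comparison, by -0.31 for the GMTMM-labelled library against MICFs and by -0.17 between the iCM libraries, and quantile normalization moved the second of these by -0.11. With quantile-normalized values and a pseudocount of 1, which compresses low levels, Adamts15, Mmp28, Mmp16, Mmp8 and Adamts8 were under 2-fold, and so was Adamts4 with a ratio of 1.97. On that scale GMTMS-iCMs were 14.1-fold lower than MICFs for Adamts5, 4.11-fold for Mmp11, 3.89-fold for Adamts7 and 3.66-fold for Adamts12. Adamts8 (0 and 8 counts) and Mmp8 (14 and 0 counts) met the minimum through the GMTMM-labelled library alone, and without them 6 members were higher and 19 lower.

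**Figure D1:**
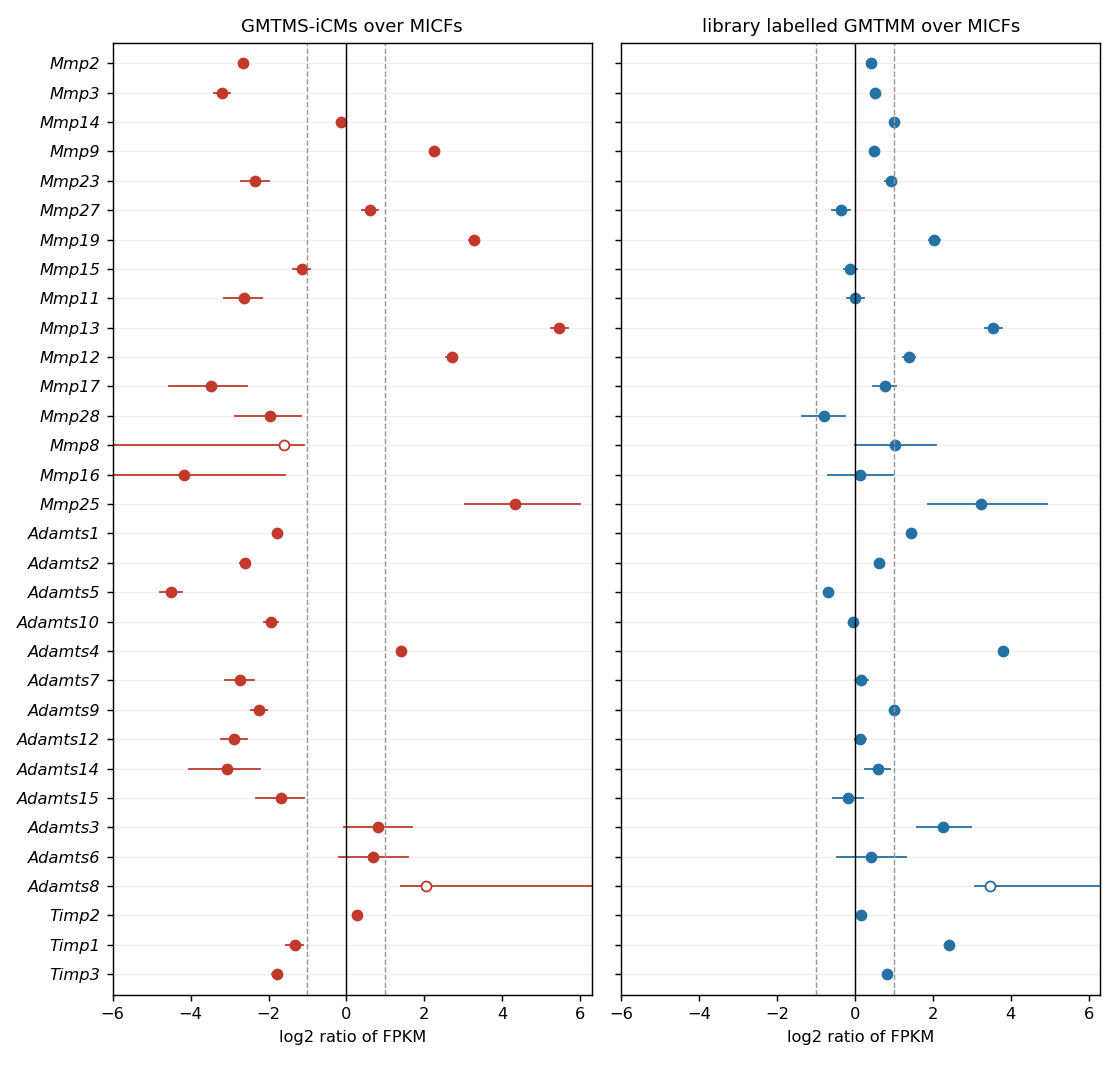
Log2 ratio of FPKM to the MICF library for the 32 members with at least 20 counts in 1 library, for GMTMS-iCMs (left) and the GMTMM-labelled library (right), with 1 library per group. Points are ratios, lines are 95% counting intervals, open points are bounds set with 3 counts in a library at 0, and dashed lines mark 2-fold; Mmp13 is farthest right on the left panel at 44.1-fold and Adamts4 on the right panel at 13.8-fold.

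Among the secreted collagenases and gelatinases, Mmp13 and Mmp9 were higher and Mmp2 and Mmp8 were lower in GMTMS-iCMs than in MICFs. Mmp13, the main interstitial collagenase of rodents, was at 4.94 FPKM in MICFs (190 counts), 218 FPKM in GMTMS-iCMs (5403 counts) and 57.7 FPKM in the GMTMM-labelled library (1803 counts). Its ratio to MICFs was 44.1 (38.1 to 51.2) in GMTMS-iCMs and 11.7 (10.1 to 13.6) in the GMTMM-labelled library. It had the largest ratio of all members in GMTMS-iCMs, where it was the most abundant MMP. Mmp9, the gelatinase of inflammatory cells, was at 29.2, 140 and 40.6 FPKM in MICFs, GMTMS-iCMs and the GMTMM-labelled library (1487, 4601 and 1680 counts). It was 4.79-fold higher in GMTMS-iCMs (4.52 to 5.09), and its ratio of 1.39 (1.30 to 1.49) in the GMTMM-labelled library was under 2-fold.

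Mmp2, the gelatinase made mainly by mesenchymal cells, went the other way. It was at 182 FPKM in MICFs (8833 counts), 28.8 FPKM in GMTMS-iCMs (903 counts) and 241 FPKM in the GMTMM-labelled library (9500 counts). It was 6.31-fold lower in GMTMS-iCMs (5.90 to 6.77). The ratio in the GMTMM-labelled library was 1.32 (1.29 to 1.36) and became 0.866 with quantile normalization. Mmp8, the collagenase named for neutrophils, was near the limit of detection, with 14, 0 and 23 counts (0.401, 0 and 0.812 FPKM). With 3 counts set in the empty library it was at least 3.01-fold lower in GMTMS-iCMs.

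The metalloelastase Mmp12 was higher and the stromelysins Mmp3 and Mmp11 were lower in GMTMS-iCMs. Mmp12, known from macrophages, was at 4.78, 31.1 and 12.5 FPKM in MICFs, GMTMS-iCMs and the GMTMM-labelled library (498, 2090 and 1056 counts). Its ratio to MICFs was 6.50 (5.89 to 7.18) in GMTMS-iCMs and 2.61 (2.35 to 2.91) in the GMTMM-labelled library. Both iCM libraries were thus above MICFs. Mmp3, a stromelysin that cuts proteoglycans and activates other MMPs, was at 118, 13.0 and 168 FPKM (3054, 217 and 3527 counts). It was 9.08-fold lower in GMTMS-iCMs (7.91 to 10.5), and its ratio of 1.42 in the GMTMM-labelled library was 0.927 with quantile normalization. Of the 50-base words of the Mmp3 transcript, 8.39% are shared with other genes, among them Mmp10, which had at most 5 counts. Mmp11, a stromelysin that furin activates inside the cell, was at 9.41, 1.51 and 9.46 FPKM (376, 39 and 307 counts) and was 6.22-fold lower in GMTMS-iCMs (4.47 to 8.89).

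Among the membrane-type MMPs, Mmp25 was higher, Mmp15, Mmp16 and Mmp17 were lower, and Mmp14 was under 2-fold in GMTMS-iCMs. Mmp14, the membrane collagenase that activates the Mmp2 precursor, was at 87.0 FPKM in MICFs (7459 counts), 79.3 FPKM in GMTMS-iCMs (4391 counts) and 173 FPKM in the GMTMM-labelled library (12042 counts). Its ratio to MICFs was 0.912 (0.878 to 0.947) in GMTMS-iCMs and 1.99 (1.93 to 2.05) in the GMTMM-labelled library. It was the only one of the 3 most abundant MMPs of MICFs that was not over 2-fold lower in GMTMS-iCMs. Mmp25, which is tied to the membrane by a lipid anchor, had 5, 65 and 38 counts, with ratios to MICFs of 20.1 (8.2 to 64.1) and 9.36 (3.68 to 30.5), which were 2.29 and 1.49 with quantile normalization and a pseudocount of 1. Its level stayed low in all libraries, at 0.0655, 1.32 and 0.613 FPKM. Mmp17, the other lipid-anchored member, had 172, 10 and 236 counts (1.81, 0.163 and 3.05 FPKM) and was 11.1-fold lower in GMTMS-iCMs (5.89 to 23.6), and 2.30-fold with quantile normalization. Mmp15 was at 9.93, 4.47 and 9.14 FPKM (771, 224 and 576 counts) and was 2.22-fold lower (1.91 to 2.59). Mmp16 had 28, 1 and 25 counts (0.225, 0.0124 and 0.247 FPKM), so its 18.1-fold lower level carried an interval from 2.99 to 739.

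Among the remaining MMPs, Mmp19 was higher, Mmp23 and Mmp28 were lower and Mmp27 was under 2-fold in GMTMS-iCMs. Mmp19, a broadly expressed protease of basement membrane proteins, was at 11.7, 114 and 48.2 FPKM in MICFs, GMTMS-iCMs and the GMTMM-labelled library (597, 3727 and 1989 counts). Its ratio to MICFs was 9.67 (8.87 to 10.6) in GMTMS-iCMs and 4.10 (3.74 to 4.50) in the GMTMM-labelled library. Opposite-strand genes, Tmem198b among them, overlap 28.3% of its exon bases, and strand handling is not given in the sources used here, so its reads may be shared. Mmp23, an unusual membrane-tethered member, was at 17.9, 3.54 and 33.7 FPKM (603, 77 and 920 counts) and was 5.05-fold lower in GMTMS-iCMs (3.98 to 6.49). Mmp28, called epilysin, had 90, 15 and 42 counts (1.61, 0.417 and 0.928 FPKM) and was 3.87-fold lower (2.23 to 7.21), with 12.03% of its exon bases overlapped. Mmp27 was at 13.1, 20.1 and 10.2 FPKM (418, 412 and 263 counts), with ratios to MICFs of 1.53 (1.33 to 1.75) and 0.775 (0.662 to 0.907).

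**Figure D2:**
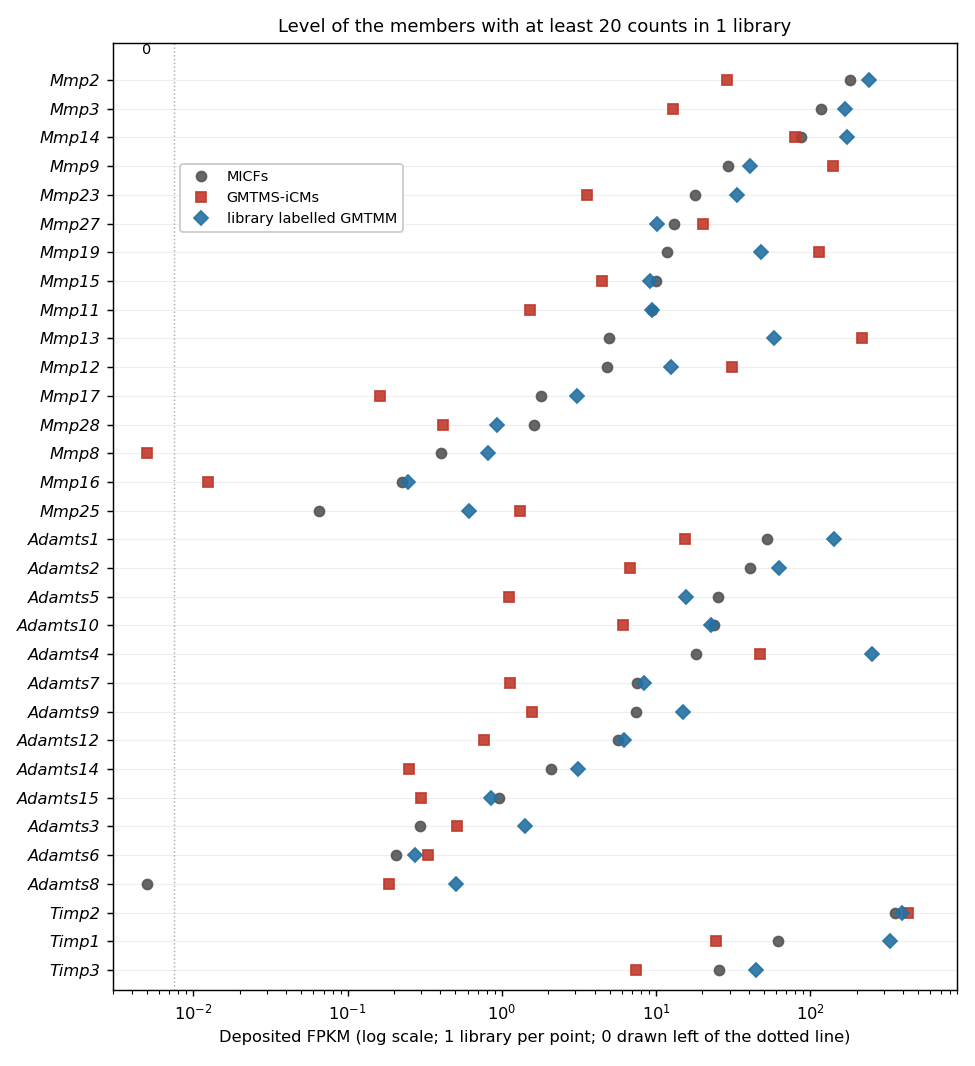
Deposited FPKM on a log scale of the 32 members with at least 20 counts in 1 library, with 1 point for each of the 3 libraries and a value of 0 drawn left of the dotted line. GMTMS-iCMs (squares) are leftmost for most ADAMTS genes and for Mmp2 and Mmp3 and rightmost for Mmp13, Mmp9, Mmp19 and Mmp12; the 3 points of Timp2 lie between 356 and 428 FPKM.

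The ADAMTS proteoglycanases, which cut aggrecan and versican, split in GMTMS-iCMs, with Adamts4 and Adamts8 higher and Adamts1, Adamts5, Adamts9 and Adamts15 lower than in MICFs. Adamts4 was at 18.1 FPKM in MICFs (1252 counts), 47.5 FPKM in GMTMS-iCMs (2123 counts) and 250 FPKM in the GMTMM-labelled library (14067 counts). Its ratio to MICFs was 13.8 (13.1 to 14.7) in the GMTMM-labelled library, and 2.63 (2.45 to 2.82) in GMTMS-iCMs, which became 1.89 with library totals and 1.97 with quantile normalization. Its ratio in the GMTMM-labelled library was the largest of all members there, beside Adamts8, for which only a bound could be given. Adamts5, the second main aggrecanase, was at 25.1, 1.11 and 15.6 FPKM (3898, 111 and 1964 counts). It was 22.7-fold lower in GMTMS-iCMs (18.8 to 27.6), the largest fold of any member in that direction, and its ratio of 0.621 (0.588 to 0.655) in the GMTMM-labelled library was under 2-fold. Adamts5 thus had the lowest ratio of the ADAMTS members in both iCM libraries.

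Adamts1 and Adamts9 were lower than MICFs in GMTMS-iCMs and higher in the GMTMM-labelled library. Adamts1 was at 52.7, 15.3 and 143 FPKM (4017, 754 and 8884 counts), with ratios to MICFs of 0.291 (0.269 to 0.314) and 2.72 (2.62 to 2.83), the second of which was 1.86 with quantile normalization. It lies next to Adamts5 on chromosome 16, with 53059 bases between the genes. Adamts9 was at 7.38, 1.56 and 14.8 FPKM (1598, 218 and 2610 counts) and was 4.73-fold lower in GMTMS-iCMs (4.10 to 5.48). Its ratio of 2.01 (1.89 to 2.14) in the GMTMM-labelled library sat at the threshold and was 1.63 with library totals, and opposite-strand genes overlap 11.99% of its exon bases. Adamts15 had 144, 29 and 103 counts (0.966, 0.301 and 0.851 FPKM) and was 3.21-fold lower in GMTMS-iCMs (2.14 to 4.96). Its neighbour Adamts8, 20109 bases away on chromosome 9, had 0, 8 and 27 counts. With 3 counts set in MICFs, Adamts8 was at least 4.13-fold higher in GMTMS-iCMs and at least 11.1-fold higher in the GMTMM-labelled library, at levels of 0.187 and 0.501 FPKM.

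The procollagen N-proteinases remove the amino-terminal propeptide of fibrillar procollagens. Adamts2, their most abundant member, was at 40.9, 6.76 and 62.9 FPKM (5496, 586 and 6854 counts) and was 6.05-fold lower in GMTMS-iCMs (5.56 to 6.60). Adamts14 had 155, 12 and 188 counts (2.07, 0.249 and 3.10 FPKM) and was 8.34-fold lower in GMTMS-iCMs (4.64 to 16.5), and 2.32-fold with quantile normalization. Adamts3 differed from both, with 23, 26 and 89 counts (0.294, 0.516 and 1.40 FPKM), a ratio of 1.75 (0.961 to 3.21) in GMTMS-iCMs and a ratio of 4.77 (2.99 to 7.90) in the GMTMM-labelled library. Thus 2 of the 3 N-proteinases fell in GMTMS-iCMs. Adamts7 and Adamts12, which cut cartilage oligomeric matrix protein, were both lower in GMTMS-iCMs. Adamts7 was at 7.49, 1.13 and 8.37 FPKM (677, 66 and 614 counts) and was 6.62-fold lower (5.14 to 8.66). Adamts12 was at 5.66, 0.769 and 6.21 FPKM (889, 78 and 792 counts) and was 7.36-fold lower (5.83 to 9.40). Adamts10, which binds fibrillin, was at 23.6, 6.14 and 22.9 FPKM (1851, 311 and 1456 counts) and was 3.84-fold lower in GMTMS-iCMs (3.41 to 4.35). Its close relative Adamts6 had 23, 24 and 25 counts, with a ratio of 1.62 (0.874 to 3.00) whose interval held 1.

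Of the TIMPs, Timp1 and Timp3 were lower in GMTMS-iCMs and Timp2 was the most abundant inhibitor in every library. Timp2, which blocks MMPs and also takes part in Mmp2 activation, was at 356 FPKM in MICFs (19943 counts), 428 FPKM in GMTMS-iCMs (15481 counts) and 395 FPKM in the GMTMM-labelled library (17997 counts). Its ratio to MICFs was 1.20 (1.18 to 1.23) in GMTMS-iCMs and 1.11 (1.09 to 1.13) in the GMTMM-labelled library, and both turned below 1 with library totals (0.867 and 0.899) and with quantile normalization (0.713 and 0.7365). Timp1, an inducible inhibitor that acts poorly on membrane-type MMPs, was at 62.0 FPKM in MICFs (792 counts), 24.6 FPKM in GMTMS-iCMs (203 counts) and 329 FPKM in the GMTMM-labelled library (3414 counts). It was 2.52-fold lower in GMTMS-iCMs (2.16 to 2.95) and 5.31-fold higher in the GMTMM-labelled library (4.91 to 5.74). Timp1 is on the X chromosome, so the difference in Y-linked and Xist counts given above cannot be told apart from the group for it either, also between the iCM libraries. Timp3, the matrix-bound inhibitor that also blocks ADAMTS enzymes, was at 25.4, 7.43 and 44.6 FPKM (2979, 562 and 4241 counts). It was 3.42-fold lower in GMTMS-iCMs (3.13 to 3.75) and had a ratio of 1.75 (1.67 to 1.84) in the GMTMM-labelled library, with Syn3 overlapping 21.3% of its exon bases on the opposite strand.

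The other 13 members had at most 18 counts in any library and were given no fold. They were Adamts13, Adamts16, Adamts17, Adamts18, Adamts19, Adamts20, Mmp1b, Mmp7, Mmp10, Mmp20, Mmp21, Mmp24 and Timp4. Mmp7, Mmp20 and Adamts16 had 0 counts in all 3 libraries, where a count of 0 allows up to 3 counts, or 0.252 to 0.282 CPM. Adamts17 had 18, 0 and 16 counts, and Timp4, the inhibitor known from heart muscle, had 2, 11 and 7.

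The makeup of the MMP sum differed between the libraries. Summed over members, MMP transcripts were at 492 FPKM in MICFs, 655 FPKM in GMTMS-iCMs and 809 FPKM in the GMTMM-labelled library. In MICFs Mmp2 made up 37.0% of the sum, Mmp3 23.9% and Mmp14 17.7%. In GMTMS-iCMs the leading MMPs were Mmp13 with 33.2%, Mmp9 with 21.4% and Mmp19 with 17.3%, and Mmp2 made up 4.40%. In the GMTMM-labelled library the leading MMPs were Mmp2 with 29.8%, Mmp14 with 21.4% and Mmp3 with 20.7%, followed by Mmp13 with 7.14%. The ADAMTS sum was 185, 81.9 and 531 FPKM, of which Adamts4 made up 9.80%, 58.0% and 47.2%. The TIMP sum was 443, 460 and 769 FPKM, of which Timp2 made up 80.3%, 93.0% and 51.4% and Timp1 14.0%, 5.35% and 42.8%.

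Within a library the ratio of these sums does not depend on its size factor. The summed MMP level over the summed TIMP level was 1.42 (1.39 to 1.46) in GMTMS-iCMs, against 1.11 (1.09 to 1.13) in MICFs and 1.05 (1.03 to 1.07) in the GMTMM-labelled library. The ADAMTS over TIMP ratio was 0.417 (0.408 to 0.425), 0.178 (0.172 to 0.184) and 0.690 (0.677 to 0.704). GMTMS-iCMs thus had the highest MMP to TIMP ratio and the lowest ADAMTS to TIMP ratio of the 3 libraries, as ratios of transcript levels. Timp2 made up most of the TIMP sum (80.3%, 93.0% and 51.4%). Timp3, the TIMP described above as also blocking ADAMTS enzymes, made up 5.74%, 1.615% and 5.80% of it. The ADAMTS over TIMP ratio is therefore not a ratio to that inhibitor.

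**Figure D3:**
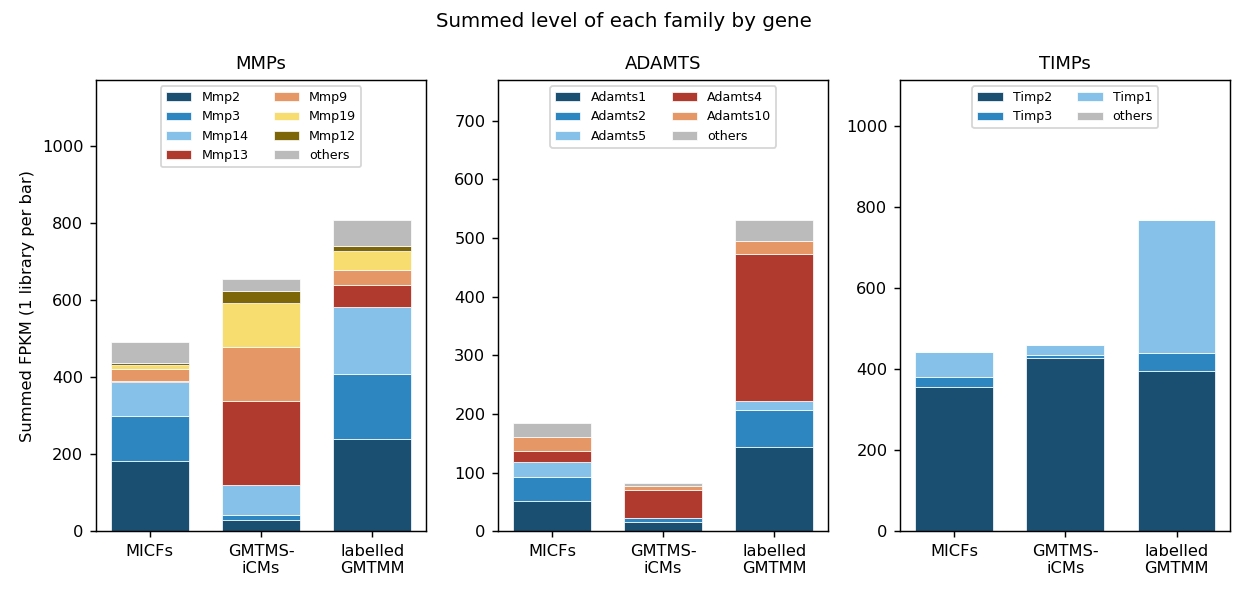
Summed FPKM of the MMP, ADAMTS and TIMP members in the 3 libraries, 1 library per bar, divided by gene, with an axis of its own for each family starting at 0. The MMP bar of MICFs is mostly Mmp2, Mmp3 and Mmp14 and that of GMTMS-iCMs mostly Mmp13, Mmp9 and Mmp19, and Adamts4 fills 250 of the 531 FPKM of the ADAMTS bar of the GMTMM-labelled library.

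The members were also set against the marker sums of the same library. Per 1000 FPKM of fibroblast markers, Mmp2 was at 134 FPKM in MICFs, 143 FPKM in GMTMS-iCMs and 95.6 FPKM in the GMTMM-labelled library. Mmp3 was at 86.6, 64.15 and 66.4 on that scale. Both varied less on it than in FPKM, where GMTMS-iCMs were 6.31-fold and 9.08-fold below MICFs. Adamts5 was at 18.45, 5.48 and 6.17 per 1000 FPKM of fibroblast markers, below MICFs in both iCM libraries. Timp1 was at 45.6, 122 and 130, above MICFs in both. Other members that were lower in GMTMS-iCMs in FPKM were above MICFs there on this scale, among them Adamts1 (38.7 in MICFs and 75.7), Timp3 (18.7 and 36.7) and Mmp15 (7.30 and 22.1). Adamts12, Adamts14, Mmp8, Mmp16 and Mmp17 stayed below MICFs there, as did Mmp3 and Adamts5. Timp2 was at 261.5, 2115 and 157. Per 1000 FPKM of macrophage markers, Mmp13 was at 0.501, 10.7 and 6.03 and Mmp19 at 1.19, 5.565 and 5.03. Mmp12 was at 0.485, 1.52 and 1.30 and Mmp9 at 2.96, 6.86 and 4.24 on that scale, so all 4 were higher in GMTMS-iCMs than in MICFs. Lyz2 makes up most of the macrophage sum, and Col3a1 is the largest term of the fibroblast sum in MICFs.

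Against the same MICF library, the GMTMM-labelled library had more transcript of 11 members and over 2-fold less of none. The 11 were Adamts4, Mmp13, Timp1, Mmp19, Mmp12, Adamts1, Adamts9, Adamts3, Mmp25, Mmp8 and Adamts8, and the other 21 members had ratios from 0.575 for Mmp28 to 1.99 for Mmp14. Across all tested genes 12.7% were over 2-fold higher and 8.55% over 2-fold lower, and quantile normalization with a pseudocount of 0.1 gave 8 members higher and 1, Adamts5, lower. The median log2 ratio was 0.60 over the members and 0.02 over all genes. Adamts4, Mmp13, Timp1, Mmp19 and Mmp12 were over 2-fold higher with library totals, TMM library sizes and quantile normalization at either pseudocount, and the other 6 were under 2-fold on at least 1 of these scalings. The 6 were Adamts1, Adamts9, Adamts3, Mmp25, Mmp8 and Adamts8, and Mmp8 had a ratio of 2.02 with an interval that held 1 (0.998 to 4.25). Of the libraries compared here, Mmp25 (5 and 38 counts), Mmp8 (14 and 23) and Adamts8 (0 and 27) reached 20 counts in the GMTMM-labelled library alone. The minimum thus favoured a higher call for them. Of the 9 fibroblast markers Lum, Postn and Col1a1 were over 2-fold higher than in MICFs and none was over 2-fold lower, and of the 11 macrophage markers Cd14 alone was over 2-fold higher.

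The comparisons with MICFs share that library, so their calls are placed side by side and nothing is read from their overlap. Mmp12, Mmp13 and Mmp19 were over 2-fold higher in both iCM libraries on the deposited scale and all 4 alternative scalings. Adamts4, Adamts8 and Mmp25 were over 2-fold higher in both on the deposited scale. Under another scaling Adamts4 was under 2-fold in GMTMS-iCMs, Mmp25 in the GMTMM-labelled library and Adamts8 in both. Mmp9 was over 2-fold higher in GMTMS-iCMs and under 2-fold in the GMTMM-labelled library, and Adamts3 was the reverse on the deposited scale. Adamts1, Adamts9, Mmp8 and Timp1 were lower in GMTMS-iCMs and higher in the GMTMM-labelled library, and Timp1 alone of these kept both calls on all 4 alternative scalings.

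Compared directly, GMTMS-iCMs had less transcript of 24 members and more of 5 than the GMTMM-labelled library, and 3 were under 2-fold. Across all tested genes 18.7% were over 2-fold lower and 9.81% over 2-fold higher. The median log2 ratio was -2.49 over the members and 0.01 over all genes. The 5 higher members were all MMPs. Mmp13 was 3.77-fold higher (3.57 to 3.98), Mmp9 3.44-fold (3.26 to 3.64), Mmp12 2.49-fold (2.31 to 2.68) and Mmp19 2.36-fold (2.23 to 2.49). Mmp25 was 2.15-fold higher (1.42 to 3.30), and 1.92-fold with library totals. No ADAMTS or TIMP member was over 2-fold higher in GMTMS-iCMs, and 12 of the 13 ADAMTS members with folds were lower, of which Adamts3, Adamts8 and Adamts15 were under 2-fold on the quantile-normalized scale, as were Mmp8, Mmp15, Mmp16 and Mmp28.

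On the scale of the deposited FPKM, the largest differences the other way were those of Mmp16, Mmp17, Adamts5, Timp1, Mmp3 and Adamts14. Mmp17 was 18.8-fold lower in GMTMS-iCMs (10.0 to 39.6) and Adamts5 14.1-fold lower (11.6 to 17.2). Timp1 was 13.4-fold lower (11.6 to 15.5), Mmp3 12.9-fold (11.3 to 14.9) and Adamts14 12.5-fold (6.97 to 24.5). Mmp16 was 19.9-fold lower but rested on 1 count in GMTMS-iCMs (3.25 to 816). With quantile normalization and a pseudocount of 1, Timp1 was 12.3-fold lower and Mmp3 11.2-fold, while Adamts5 was 7.21-fold, Mmp17 3.38-fold, Adamts14 3.16-fold and Mmp16 1.20-fold lower. Mmp14, which was under 2-fold in both comparisons with MICFs, was 2.18-fold lower (2.11 to 2.26). Timp2 had a ratio of 1.08 (1.06 to 1.11), below 1 with library totals and quantile normalization. Between these libraries all 9 fibroblast markers were over 2-fold lower and 10 of the 11 macrophage markers over 2-fold higher in GMTMS-iCMs. The macrophage count holds for the deposited scale, with C1qb at 2.05, Lyz2 at 2.07 and Itgam at 2.10 close to the threshold.

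Within the chromosome 9 cluster, neighbouring genes differed in direction. Mmp13 and Mmp12, at its start, were higher in both iCM libraries than in MICFs, whereas Mmp3 was lower in GMTMS-iCMs. Mmp1b and Mmp10, on either side of Mmp3, had at most 5 counts, and Mmp20 and Mmp7, at the far end, had 0. Thus Mmp13, Mmp12 and Mmp3, whose upstream bases with AP-1 letters are printed above, differed in direction in GMTMS-iCMs.

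**Figure D4:**
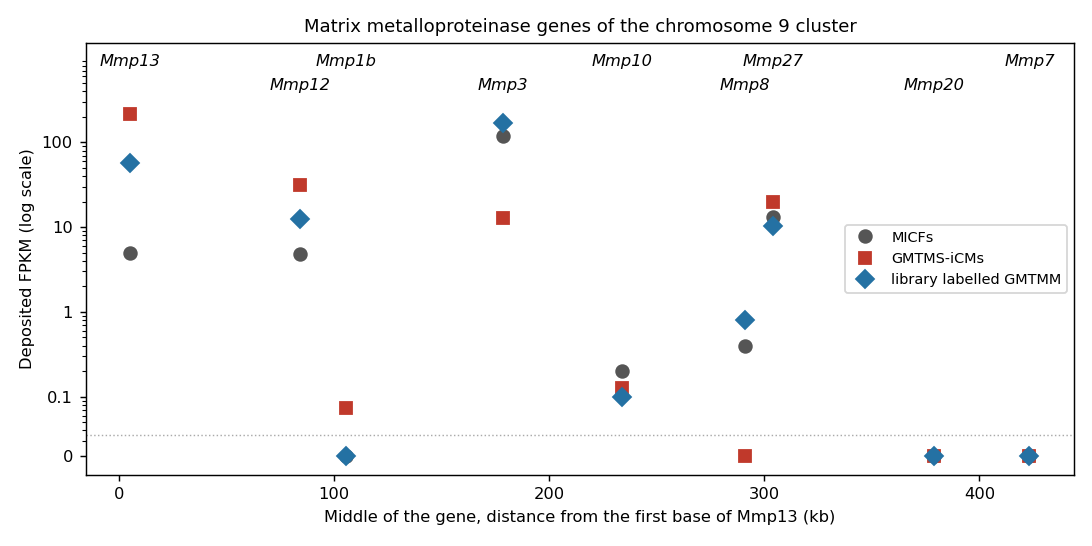
Deposited FPKM (log scale, with 0 below the dotted line) of the 9 cluster genes of chromosome 9 in the 3 libraries, placed by the distance in kilobases of each gene's middle from the first base of Mmp13. Of the 3 libraries, GMTMS-iCMs (squares) are the highest at Mmp13 with 218 FPKM, the lowest at Mmp3 with 13.0 FPKM and at 0 for Mmp8.

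Genes that activate, clear or inhibit these proteases also differed between the libraries. Of 13 such genes with folds, 4 were over 2-fold higher in GMTMS-iCMs than in MICFs (Plaur, Serpinb2, Furin and Spock2) and 6 were over 2-fold lower (Plat, Serpine2, Reck, Tfpi2, A2m and Mrc2). In the GMTMM-labelled library 5 were higher (Plaur, Plat, Serpinb2, Tfpi2 and Spock2) and A2m alone was lower. Plaur, the receptor that holds urokinase at the cell surface, had 377, 2480 and 1864 counts and ratios to MICFs of 10.2 (9.14 to 11.4) and 6.09 (5.45 to 6.82). Reck, a membrane-anchored MMP inhibitor, had 353, 73 and 366 counts and was 3.12-fold lower in GMTMS-iCMs (2.42 to 4.07). Furin, which activates membrane-type MMPs, ADAMTS enzymes and Mmp11, was 3.02-fold higher in GMTMS-iCMs (2.87 to 3.18).

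Among other proteases and matrix genes, Adam8 and Adam17 were over 2-fold higher and Adam12 lower in GMTMS-iCMs, of 8 membrane ADAM genes. Of 6 cathepsins, the lysosomal proteases, 4 were over 2-fold higher in GMTMS-iCMs and none in the GMTMM-labelled library, against 14.1% and 12.7% of all tested genes. Their ratios in GMTMS-iCMs were 2.00 for Ctsz, 2.13 for Ctsb, 2.17 for Ctsl and 2.72 for Ctss. The shift of -0.47 on the log2 scale with library totals would take all 4 under 2-fold. Of 6 ADAMTS-like genes, which lack a protease domain, Adamtsl2 was higher and 3 were lower in GMTMS-iCMs, and 2 were higher in the GMTMM-labelled library. Of 10 substrate genes with folds, 9 were over 2-fold lower in GMTMS-iCMs, among them Col1a1, Col3a1, Fn1 and Vcan, against 19.2% of all tested genes. Col1a1, Col3a1 and Dcn are also in the fibroblast marker list, so the lists are not separate results. Acan, the proteoglycan aggrecan, was over 2-fold higher there with 3, 13 and 41 counts in the 3 libraries. In the GMTMM-labelled library, 3 substrate genes (Col1a1, Col1a2 and Acan) were over 2-fold higher and none was over 2-fold lower.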

How the data were processed

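RNA was sequenced with paired reads. The authors deposited a table of raw counts per gene and a table of FPKM per gene for the same 3 libraries. The column cMF, an abbreviation not spelled out in the sources used here, was matched to the MICF sample by exclusion, since the other columns name the cocktails. The submitters' processing notes name HISAT2 2.0.5 and mm9, but the gene coordinates in the deposited tables are those of GRCm38 (GENCODE M21) for 44 of 45 members. The counting tool and strand handling are not given in the sources used here. The deposited FPKM were found to be counts per gene length divided by a median-of-ratios size factor (1.26, 0.811 and 1.02 in the order MICFs, GMTMS-iCMs, GMTMM-labelled library) and the geometric mean of the library totals.

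Ratios of deposited FPKM were computed for genes with at least 20 counts in 1 of 3 libraries, with 95% Clopper-Pearson intervals on the counts. A library at 0 was set to 3 counts and the ratio given as a bound. A member was called past 2-fold. Every member above the minimum was named, and other genes were named where a fixed list held them and they passed 2-fold. Members and lists were chosen with earlier results of these data known, and 1 listed gene is not reported here. Alternatives were library totals, TMM library sizes (edgeR 4.0.16 in R 4.3.3), quantile-normalized log2(FPKM + pseudocount) with a pseudocount of 1 or 0.1, count minimums of 10, 50 and none, and folds of 1.5 and 4. In simulated counts with 200 of 12835 genes changed 4-fold for GMTMS against MICFs, 100% were recovered and 0.625% of unchanged genes were called. These counts held Poisson counting error only, and the changed genes were picked among those with at least 20 expected MICF counts. The simulation checks the computation and gives no error rate for cultures, sorts or mice, or for members with few counts. Computation used Python 3.11.15 with pandas 2.3.3 and SciPy 1.17.1.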

Additional observations from a re-analysis of the deposited data

Results flagged for a closer look

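A set of 4 members differed from MICFs in opposite directions in the iCM libraries, below it in GMTMS-iCMs and above it in the GMTMM-labelled library, and with 1 library per group this difference was not tested. It was found for 1.44% of all tested genes. Of the 9 fibroblast markers, Lum, Postn and Col1a1 also had this pattern. Per 1000 FPKM of fibroblast markers, Adamts1 was at 38.7, 75.7 and 56.8 in MICFs, GMTMS-iCMs and the GMTMM-labelled library. Adamts9 was at 5.43, 7.71 and 5.88 on that scale and Timp1 at 45.6, 122 and 130, so these were above MICFs in both. Mmp8 was at 0.295, 0 and 0.322. Timp1 alone of the 4 kept both calls on all 4 alternative scalings. In the GMTMM-labelled library the ratio to MICFs was 1.86 for Adamts1 with quantile normalization, 1.63 for Adamts9 with library totals and 1.64 for Mmp8 with library totals, and Mmp8 was also under 2-fold in GMTMS-iCMs with quantile normalization and a pseudocount of 1. The level in the GMTMM-labelled library over that in GMTMS-iCMs was 9.37-fold for Adamts1 and 9.52-fold for Adamts9. It was 13.4-fold for Timp1, the X-linked inhibitor. For Mmp8 it was at least 6.10-fold, a bound set with 3 counts because GMTMS-iCMs had none. Mmp8 (14, 0 and 23 counts) met the minimum through the GMTMM-labelled library alone, where it was highest, so its place in the set leans on that filter.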

How the results depend on the processing

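No paired analysis was possible because each group has 1 library. Of 93 alternatives for the counts, medians and sums, 75 stayed near the reported value, which for counts meant within 1.5-fold. Some of these reuse the same ratios with another count minimum. Of 288 alternatives for the folds of single members, 129 moved away from the reported value. With library totals the median log2 ratio of the members was -2.20 for GMTMS-iCMs against MICFs and 0.293 for the GMTMM-labelled library against MICFs, where 1 member was then lower. With quantile-normalized values and a pseudocount of 1 these medians were -0.90 and 0.239, the median between the iCM libraries was -1.38, and 5 members were higher in the GMTMM-labelled library. A pseudocount of 0.1 gave that library a median of 0.310 and 1 lower member. At 1.5-fold 2 members were lower there. At 4-fold 7 were higher there, 12 were lower in GMTMS-iCMs than in MICFs and 0 were higher than in the GMTMM-labelled library. The MMP to TIMP ratio with quantile normalization was 1.07 in MICFs and 1.503 in GMTMS-iCMs. Without Mmp2 it was 0.700, 1.36 and 0.738 in MICFs, GMTMS-iCMs and the GMTMM-labelled library. The cause of these shifts was not tested beyond what each setting changes. A minimum of 20 counts in 1 of the 2 libraries compared was added after seeing the data and, for GMTMS-iCMs against MICFs, gave 6 members higher and 19 lower, with the other counts as reported. No called member changed direction under any scaling. With 1 library per group, only counting error is measured, and differences between cultures, sorts and mice are not.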
